A study of Mus musculus with 8 samples.

Results

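Piezo1, a channel of the plasma membrane that opens when the membrane is stretched, was examined together with 9 channel genes whose products act beside it at the same membrane: Trpv2, Kcnn4, Kcna3, Trpm4, Trpm7, Panx1, P2rx4, P2rx7 and Lrrc8a. The genes were taken by symbol, and all 10 were found among the 23183 genes counted in each library. The study asked how Piezo1 activity alters group 2 innate lymphoid cells (ILC2s), and bulk RNA sequencing compared 4 cultures given Yoda1 at 5 µM, a small molecule that opens Piezo1, with 4 cultures given the solvent DMSO at 0.1%, each for 3 h. The cells of both groups were lung ILC2s from C57BL/6 mice aged 6 to 10 weeks that had received the alarmin IL-33, were enriched with magnetic kits, and were kept in IL-2, IL-7 and IL-33 at 10 ng/mL each. Both groups therefore describe ILC2s that were already activated, and no untreated library was analysed here. The labels give neither the sex of the mice behind a library, nor whether replicates came from separate mice, nor whether the Yoda1 wells carried DMSO. The p-values below therefore measure the spread between these libraries, which may be technical.

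Piezo1 passes calcium and sodium into the cell when force or an agonist opens it. In lymphocytes such calcium opens the potassium channel encoded by Kcnn4, which keeps the membrane negative and so holds the drive for further calcium entry, while the sodium channel encoded by Trpm4 does the reverse. Stretch and swelling also release ATP through pannexin channels and open volume-regulated anion channels of the LRRC8 family, and the released ATP acts on P2X receptors, which are cation channels themselves.

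The libraries held 12438009 to 19534653 counts, and 1 count stood for 0.0514 to 0.0807 CPM (counts scaled to library size by the trimmed mean of M-values). All 15 ILC2 markers passed the filter on low counts and together held 19450 to 19980 CPM in DMSO and 21610 to 22000 CPM in Yoda1. The cytokine gene Il13 led, with means of 5427 CPM in DMSO and 6663 CPM in Yoda1. Gata3 stood at 564.5 and 564.6 CPM, and Id2 and Icos had lower means in Yoda1. The summed B cell list reached at most 8.24 CPM, led by Cd79b at 70 to 128 counts, with Pax5 at 0. The epithelial list reached at most 5.25 CPM, led by Cdh1 at 32 to 63 counts, with Sftpc and Scgb1a1 at 0. NK cell genes stood at 764 to 841 CPM in DMSO and 813 to 877 CPM in Yoda1, most of it Prf1 and Gzma (DMSO means 384.4 and 343.5 CPM). Ncr1, Klrb1c, Klra4 and Klra8 had DMSO means of 4.42, 6.06, 0.632 and 8.57 CPM, and Eomes 37.7 CPM. T cell genes stood at 132 to 145 CPM in DMSO and 128 to 133 CPM in Yoda1, led by Lef1, whose mean fell from 64.1 to 48.9 CPM. Means of Cd3e and Cd8b1 were also lower in Yoda1, and those of Cd3d, Cd3g, Cd4, Cd8a and Cd5 were higher. The macrophage list held 220 to 240 CPM in DMSO and 203 to 210 CPM in Yoda1, nearly all of it Ccr2, with 6 of its 10 genes, Csf1r and Lyz2 among them, at 3 counts or fewer in every library. The dendritic cell list held 23.4 to 24.7 CPM in DMSO and 29.2 to 34.5 CPM in Yoda1, led by Xcr1. The part of these lists in the results below was not tested. In bulk RNA, fewer cells of a type and less RNA per cell cannot be told apart.

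Both potassium channels share a selectivity filter, the stretch of the pore that lets potassium through and holds sodium back. Their reference codons for it are shown here. The sequences below come from the mouse genome GRCm38, on the plus strand for both genes. Capitals mark the 6 codons of the filter. The Kcna3 stretch lies at chr3:107037581-107037640, in the 1 exon of that gene, and the Kcnn4 stretch at chr7:24379168-24379227, in exon 4 of 9, both in coding sequence.
Kcna3: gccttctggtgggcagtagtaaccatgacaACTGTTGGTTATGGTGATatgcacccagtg
Kcnn4: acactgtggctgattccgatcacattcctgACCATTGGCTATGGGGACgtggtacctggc
Of the 18 capital bases, 13 were identical between the 2 genes, and of all 60 bases, which include those 18, 28 were. Both stretches were found by searching for the amino acids of the filter, so the likeness within the capitals was largely fixed by the search.

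Upstream sequence is shown for the agonist's target, Piezo1, and for the 2 members that passed the test, Kcna3 and Trpm7. Each line gives the 250 bases before the gene start in the RefSeq table of GRCm38.p6, read on the strand of the gene. Capitals mark GGAAA on either strand, the core letters that NFAT, the calcium-responsive factor of lymphocytes, can bind. The Piezo1 stretch is chr8:122551330-122551579 on the minus strand, the Kcna3 stretch chr3:107035912-107036161 on the plus strand, and the Trpm7 stretch chr2:126876262-126876511 on the minus strand.
Piezo1: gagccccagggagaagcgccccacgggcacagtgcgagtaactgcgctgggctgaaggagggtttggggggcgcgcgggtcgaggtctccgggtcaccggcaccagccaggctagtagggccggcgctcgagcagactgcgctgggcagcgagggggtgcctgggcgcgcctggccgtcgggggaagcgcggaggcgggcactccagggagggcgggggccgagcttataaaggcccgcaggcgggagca
Kcna3: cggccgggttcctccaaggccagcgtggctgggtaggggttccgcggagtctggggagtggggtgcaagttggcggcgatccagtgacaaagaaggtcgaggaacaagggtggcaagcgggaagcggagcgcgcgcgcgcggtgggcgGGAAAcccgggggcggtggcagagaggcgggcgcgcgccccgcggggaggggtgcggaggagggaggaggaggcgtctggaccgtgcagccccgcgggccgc
Trpm7: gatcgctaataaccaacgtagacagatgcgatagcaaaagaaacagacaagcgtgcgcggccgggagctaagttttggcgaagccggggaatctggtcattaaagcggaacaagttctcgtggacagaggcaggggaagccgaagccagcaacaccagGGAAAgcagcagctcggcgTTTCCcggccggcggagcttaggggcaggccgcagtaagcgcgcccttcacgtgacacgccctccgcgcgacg
GGAAA occurred once, 102 bases before the start, in Kcna3 and did not occur in the Piezo1 window. In Trpm7 it began at 92 and at 73 bases before the start. RefSeq windows reaching from 250 bases before to 50 bases after the start were found for 9 of the 10 members (all but Trpm4), 12 windows in all, and 7 of the 12 windows held GGAAA, beside 61.3% of all 32851 windows. Longer motifs were rare among the members, as they were in the whole table. TGACGTCA, the cAMP response element, was found for Lrrc8a alone (1.79% of all windows). TGANTCA, bound by AP-1, was found for P2rx7 alone (7.81%), and GCGTGGGCG, bound by EGR factors, for 0 members (0.612%). Each motif was searched on both strands. These matches are a description of letters, and binding was not measured.

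In the DMSO cultures all 10 channels were detected, with 176 or more counts in every library of either group, and Trpv2 and Piezo1 stood at the top. Levels of different genes are compared here as RPKM, which divides CPM by the kilobases covered by all annotated exons of a gene. Trpv2, a cation channel of lymphoid and myeloid cells, had the highest mean at 33.0 ± 1.09 RPKM (SD, n = 4), with libraries from 32.0 to 34.0. Piezo1 followed at 31.2 ± 1.32 RPKM (SD, n = 4), and its libraries, from 29.5 to 32.7, overlapped those of Trpv2. They lay at percentiles 87.8 and 87.1 of the 11776 tested genes with a length, whose median was 6.37 RPKM.

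Potassium channels formed the next pair. Kcna3, a voltage-gated potassium channel of lymphocytes, stood at 20.1 ± 1.48 RPKM (SD, n = 4) and Kcnn4 at 18.5 ± 1.12 RPKM (SD, n = 4), and their libraries overlapped. Trpm7, a channel joined to a kinase that passes magnesium, calcium and zinc, stood alone at 10.9 ± 0.419 RPKM (SD, n = 4). A set of 4 members was close and lay below the median of tested genes, with Lrrc8a at 4.21 ± 0.668, Panx1 at 4.15 ± 0.273, P2rx4 at 3.67 ± 0.429 and P2rx7 at 3.41 ± 0.111 RPKM (SD, n = 4 each) and overlap between each neighbouring pair. Trpm4 was lowest at 1.54 ± 0.0978 RPKM (SD, n = 4), and the ratio of the highest to the lowest member was 21.5, or 10.5 with the longest transcript as length. Piezo1 made up 22.7 to 24.6% of the summed level of the 10 members in the 4 DMSO libraries, or 13.2 to 14.7% with coding length. The order depends on the length used as well. Divided by coding length, Kcnn4 led with a mean of 74.1, ahead of Trpv2 at 65.3 and Piezo1 at 40.6, and only 2 members kept their place. The set of 4 was not close by that length: P2rx4 stood at 22.12 and Panx1 at 19.58, near Trpm7 at 22.09, with P2rx7 at 11.39 and Lrrc8a at 7.46.

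**Figure D1:**
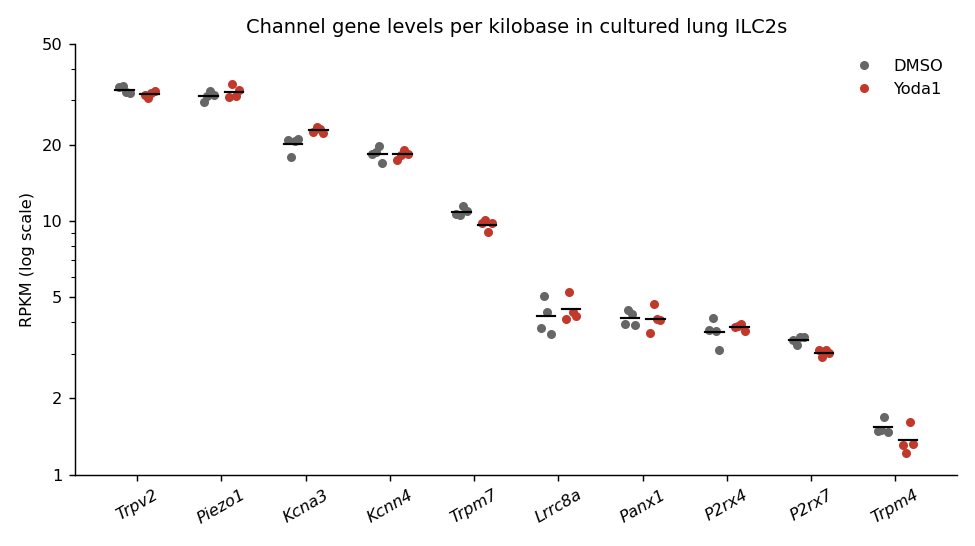
Level of each channel in the 4 DMSO (grey) and 4 Yoda1 (red) libraries in RPKM over all annotated exons, on a log axis, with a point for each library and a bar at the group mean. In DMSO, Trpv2 and Piezo1 overlap at the top, between 29.5 and 34.0 RPKM, and Trpm4 lies lowest, with a mean of 1.54 RPKM.

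Several relatives of these channels were at or near 0 counts, and others were not. Piezo2, the other mammalian Piezo channel, had 0 to 1 counts in a library, and Trpv4, a stretch- and swelling-linked TRP channel, had 0 to 7. Trpm5, the nearest relative of Trpm4, had 0 to 1 counts, and Trpm6, the other channel kinase, 1 to 7. For Kcnn4 the relatives Kcnn1, Kcnn2 and Kcnn3 reached at most 7, 0 and 2 counts, and Kcna2, a relative of Kcna3, at most 3. Kcna4, of the same subfamily and named here after its values were seen, had 222 to 286 counts, or 16.8 ± 1.98 CPM in DMSO (SD, n = 4). Panx2 had 0 to 1 counts and P2rx5 had 4 to 11. Channel complexes join Lrrc8a to further LRRC8 subunits, of which 3 passed the filter: Lrrc8c at 13.1 RPKM, Lrrc8d at 4.97 RPKM and Lrrc8b at 2.28 RPKM, while Lrrc8e had 2 to 9 counts. A count of 0 allows up to 3 counts, and these limits cover counting error alone.

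After 3 h with Yoda1, Kcna3 was higher, at 1.14-fold its DMSO level, Trpm7 was lower, with a change of -11.1%, and the other 8 channels did not pass the test. Differences are log2 fold changes of Yoda1 over DMSO from edgeR's quasi-likelihood test, adjusted by the Benjamini-Hochberg method over the 12239 genes tested, with 0.05 as the threshold. By that rule 2 of 10 members (20%) were called, beside 10.9% of all genes. In the higher direction it was 1 member, beside 6.04% of all genes, and in the lower direction 1 member, beside 4.84%. At an unadjusted p under 0.05 there were 4 members (Kcna3, Trpm7, P2rx7 and Trpm4), beside 25.3% of all genes. The libraries of both groups did not overlap in CPM for 3 members (Kcna3, Trpm7 and P2rx7), beside 15.5% of all genes. The median log2 fold change of the members was -0.0079, with 4 above and 6 below 0, and that of all genes was -0.0053. No member moved by more than 0.19 on the log2 scale in either direction, which is less than the median size of 0.23 among all genes called.

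**Figure D2:**
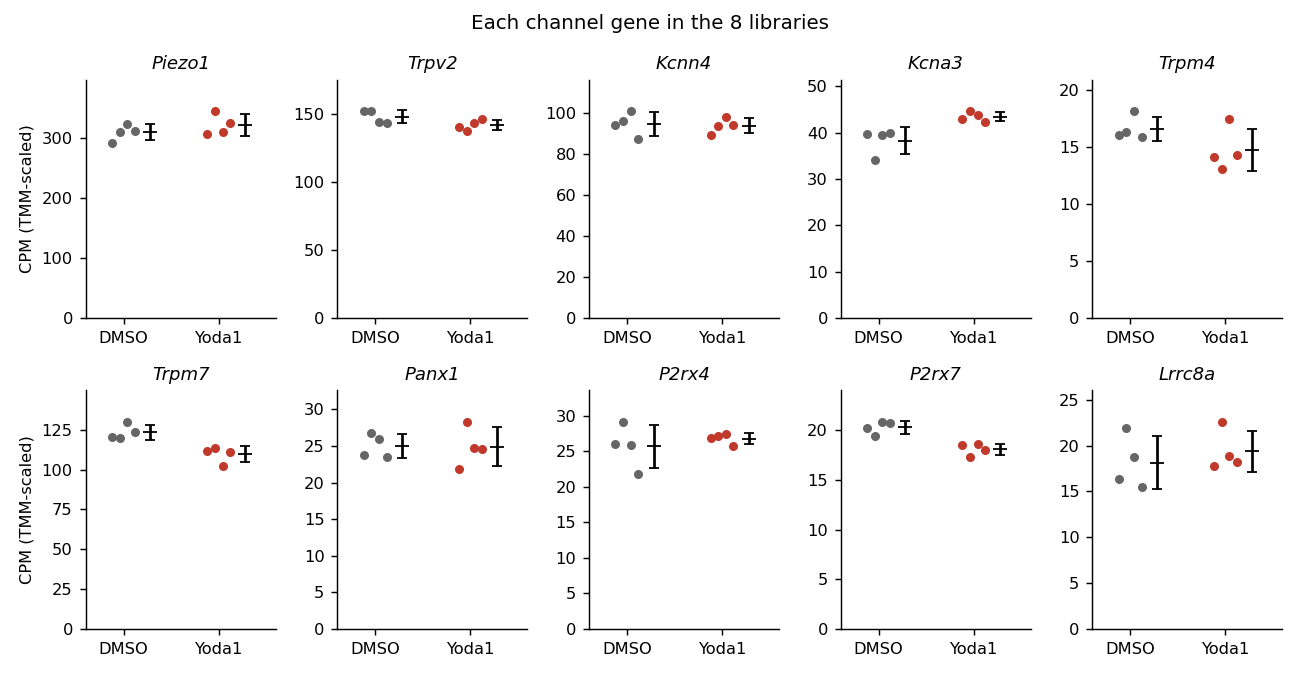
CPM of each channel in every DMSO and Yoda1 library, with a panel and a linear axis from 0 for each gene, points for libraries and a bar with the SD at the group mean. The groups are apart for Kcna3, Trpm7 and P2rx7 and overlap for the other 7 channels.

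Piezo1 itself (chr8:122481698-122551329, minus strand, 51 exons) was among the more abundant transcripts, at percentile 95.8 of tested genes in CPM. In DMSO replicates 1 to 4 it measured 292.7, 311, 324.5 and 312.8 CPM, and in Yoda1 replicates 1 to 4 it measured 307.5, 345.9, 310.2 and 325.5 CPM. The highest library was a Yoda1 culture and the lowest a DMSO culture, and the other 6 were mixed. The group means were 310 ± 13.1 CPM (SD, n = 4) and 322 ± 17.6 CPM, and edgeR gave a log2 difference of 0.06 ± 0.04 (SE) with adjusted p = 0.407. The 95% interval of the fold ran from 0.983 to 1.10. An exact two-sided permutation test over the libraries gave p = 0.4, where the smallest possible value is 0.0286.

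Exons of Piezo1 overlap those of Ctu2, a gene for tRNA modification on the opposite strand, and although the library kit marked strand, the sources used here do not say whether the counting used it. Without strand, reads of the 2 genes there cannot be told apart. Ctu2 was counted at 25.0 ± 2.39 CPM in DMSO and 27.4 ± 2.12 CPM in Yoda1 (SD, n = 4 each), far below Piezo1.

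Trpv2 (chr11:62574486-62600515, plus strand) measured 152.2, 152.5, 144.4 and 143.4 CPM in the DMSO replicates and 140.9, 137.4, 143.7 and 146.3 CPM in the Yoda1 replicates. The 2 highest libraries were DMSO and the 2 lowest Yoda1, with the others mixed. The log2 fold change was -0.06 ± 0.04 (SE), with a 95% interval from -0.14 to 0.02 and an edgeR adjusted p = 0.339. A list of 23 mechanosensitive channels also holds Piezo2, Trpv4 and the Tmc and Kcnk stretch channels. Of its 13 tested genes, 0 were called by edgeR, beside 10.9% of all genes, and the median log2 fold change was -0.015. This list includes Piezo1 and Trpv2, and 8 of its 10 untested genes had 3 counts or fewer in every library.

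Kcna3 (chr3:107036169-107038070, plus strand, a gene of 1 exon), whose channel opens when the membrane depolarises and draws it back towards negative values, rose with Yoda1. The DMSO replicates measured 39.78, 34.1, 39.42 and 39.96 CPM, and the Yoda1 replicates 42.92, 44.72, 43.91 and 42.36 CPM. Every Yoda1 library was above every DMSO library, and DMSO replicate 2 was lower than the other 3, which lay within 1 CPM of each other. The means of 38.3 ± 2.82 and 43.5 ± 1.05 CPM (SD, n = 4 each) gave a 1.14-fold level, with a 95% interval from 1.05 to 1.23. The log2 fold change was 0.19 ± 0.06 (SE) by edgeR, with adjusted p = 0.0295, and the exact permutation p was 0.0286, the smallest possible. The call rested on few libraries. Without DMSO replicate 2 the log2 fold change was 0.13 and the edgeR adjusted p = 0.167, and leaving out any 1 Yoda1 library gave edgeR adjusted p values of 0.0506 to 0.0749.

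Kcnn4 (chr7:24370263-24386690, plus strand), the calcium-activated partner, gave no such difference. Its DMSO replicates measured 94.01, 95.83, 101.0 and 87.08 CPM and its Yoda1 replicates 89.39, 93.51, 97.94 and 94.32 CPM, so that all Yoda1 values fell inside the DMSO range. The log2 fold change was -0.01 ± 0.045 (SE), with a 95% interval from -0.10 to 0.08 and an edgeR adjusted p = 0.911. The per-kilobase ratio of Kcnn4 to Kcna3 was 0.922 ± 0.101 in DMSO and 0.802 ± 0.0305 in Yoda1 (SD, n = 4 each). Its libraries overlapped, from 0.810 to 1.05 and from 0.774 to 0.8294. With the longest transcript as length the DMSO ratio was 1.30, so which of the 2 channels is the more abundant depends on the gene model. Among 54 potassium channel genes, 14 were tested and 30 had 3 counts or fewer in every library. Of those tested, 2 (14.3%, beside 10.9% of all genes) were called by edgeR, Kcna3 and Kcnab2. Kcnab2, a cytoplasmic subunit that binds voltage-gated channels such as the Kcna3 product, was the most abundant of the list at 46.3 RPKM and fell from 258 ± 4.67 CPM (SD, n = 4) to 234 ± 4.59 CPM, which is -0.14 in log2 units (edgeR adjusted p = 0.00598). The channel gene Kcna3 and the gene of this subunit thus moved in opposite directions, and the median of the list was 0.02.

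Trpm7 (chr2:126791565-126876230, minus strand, 39 exons) fell with Yoda1. Its DMSO replicates measured 120.3, 119.8, 130.1 and 123.6 CPM and its Yoda1 replicates 111.4, 113.8, 102.2 and 111.2 CPM. Every Yoda1 library was below every DMSO library, and the highest and the lowest library were DMSO replicate 3 and Yoda1 replicate 3. The mean went from 123 ± 4.74 to 110 ± 5.11 CPM (SD, n = 4 each), a change of -11.1%, and edgeR's log2 value was -0.17 ± 0.04 (SE) with a 95% interval from -0.255 to -0.08. The edgeR adjusted p was 0.00734 and the exact permutation p 0.0286. This call held under all 15 other settings that were run, with log2 fold changes from -0.20 to -0.14.

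Trpm4 (chr7:45302632-45333780, minus strand), whose channel is opened by calcium and passes sodium, had the lowest counts, 176 to 298 a library. It measured 16.08, 16.31, 18.21 and 15.95 CPM in the DMSO replicates and 14.2, 13.14, 17.46 and 14.34 CPM in the Yoda1 replicates. The other 3 Yoda1 libraries were below all DMSO libraries, and Yoda1 replicate 3 was above 3 of the 4. The log2 fold change was -0.18 ± 0.09 (SE), as large as that of Trpm7, but its 95% interval ran from -0.35 to -0.002 and the edgeR adjusted p was 0.191. The ratio of Trpm7 to Trpm4 per kilobase was 7.11 ± 0.243 in DMSO and 7.20 ± 1.14 in Yoda1 (SD, n = 4 each), with overlapping libraries. With the longest transcript as length the DMSO ratio was 4.51. Of 28 TRP channel genes, 10 were tested and 1, Trpm7, was called by edgeR (10%, beside 10.9% of all genes). The median of the list was -0.05 in log2 units, with 3 genes above 0, and 14 of its genes had 3 counts or fewer in every library.

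**Figure D3:**
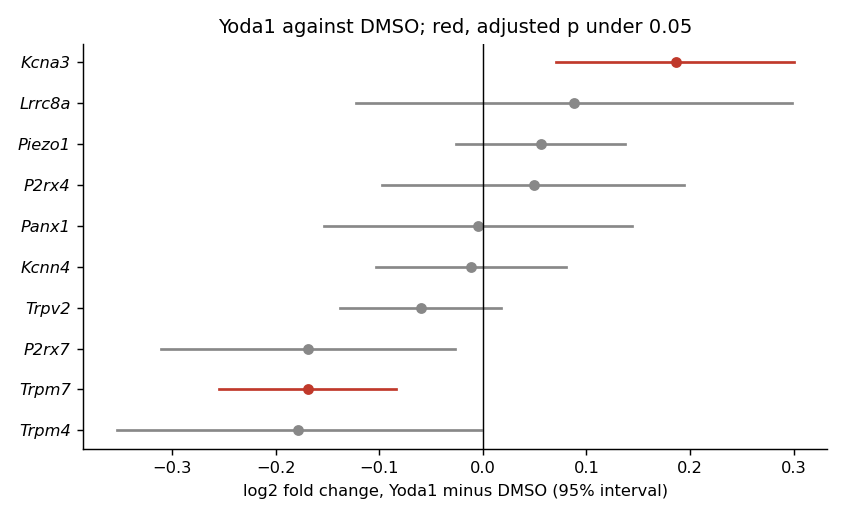
Log2 fold change of Yoda1 over DMSO for each channel by edgeR, with 95% intervals and a line at 0. The intervals of Kcna3 (0.07 to 0.30) and Trpm7 (-0.255 to -0.08) lie away from 0 and passed the adjusted test, while those of P2rx7 and Trpm4 also exclude 0 but did not pass it.

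None of the 3 members linked to ATP passed the adjusted test. Panx1 (chr9:15002128-15045478, minus strand), the channel that lets ATP out, measured 23.77, 26.82, 26.01 and 23.49 CPM in DMSO and 21.86, 28.35, 24.8 and 24.57 CPM in Yoda1. Its lowest and its highest library were both Yoda1 cultures. The log2 fold change was -0.0044 ± 0.07 (SE), with a 95% interval from -0.15 to 0.14 and an edgeR adjusted p = 0.979.

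P2rx4 and P2rx7, receptors that open to extracellular ATP at lower and at higher concentrations respectively, lie on the plus strand of chromosome 5 at chr5:122707544-122729738 and chr5:122643911-122691432. P2rx4 measured 26.02, 29.22, 25.88 and 21.86 CPM in DMSO and 26.87, 27.13, 27.5 and 25.8 CPM in Yoda1. All Yoda1 values fell inside the wider DMSO range, and the log2 fold change was 0.05 ± 0.07 (SE) with a 95% interval from -0.10 to 0.19 and an edgeR adjusted p = 0.732. P2rx7 measured 20.27, 19.43, 20.89 and 20.75 CPM in DMSO and 18.48, 17.34, 18.58 and 17.99 CPM in Yoda1. Here every Yoda1 library was below every DMSO library, by a narrow margin. The means were 20.3 ± 0.662 CPM (SD, n = 4) and 18.1 ± 0.567 CPM, or -0.17 ± 0.07 (SE) on the log2 scale, with a 95% interval from -0.31 to -0.03. The exact permutation p was 0.0286, yet the edgeR adjusted p over all genes was 0.12, and P2rx7 was not called. Its counts were 229 to 355 a library. The ratio of P2rx4 to P2rx7 per kilobase was 1.08 ± 0.157 in DMSO and 1.26 ± 0.0489 in Yoda1 (SD, n = 4 each), with overlap through DMSO replicate 2, at 1.28.

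Of 16 P2X, pannexin and connexin genes in the files, 6 were tested and 0 called by edgeR, beside 10.9% of all genes. The median log2 fold change was 0.02. The most abundant was Calhm2, of a family of ATP-permeable channels, at 4.29 RPKM. P2rx1 had 11 to 42 counts in a library, with a log2 fold change of 0.40 and an edgeR adjusted p = 0.364. Enzymes and receptors that act on the released nucleotide were examined next. Of 21 genes for extracellular ATP handling and for P2Y or adenosine receptors, 13 were tested, and the median was 0.03. By edgeR 3 were called higher and 1 lower, which is 30.8% of those tested, beside 10.9% of all genes. Nt5e, the ectoenzyme CD73 that turns AMP into adenosine, rose from 83.7 ± 0.842 CPM (SD, n = 4) to 97.5 ± 2.19 CPM, which is 0.22 in log2 units (edgeR adjusted p = 0.000298). P2ry14, a receptor for UDP-sugars, fell from 78.2 ± 0.546 CPM (SD, n = 4) to 65.6 ± 2.85 CPM, which is -0.25 in log2 units (edgeR adjusted p = 0.000158). P2ry2, a receptor for ATP and UTP, was scarce, at 44 to 88 counts, and was called higher, by 0.53 in log2 units (edgeR adjusted p = 0.0187). That call was lost without DMSO replicate 3 (edgeR adjusted p = 0.0727), Yoda1 replicate 1 (0.0521) or Yoda1 replicate 3 (0.0524). P2ry1, a receptor for ADP, was called at the limit, by 0.15 in log2 units (edgeR adjusted p = 0.0496) and lost its call in 13 of 15 other settings. P2ry10, a lysophospholipid receptor of the same family, was the most abundant of this list at 30.7 RPKM and was not called (edgeR adjusted p = 0.224).

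Lrrc8a (chr2:30237715-30263790, plus strand, 4 exons), the subunit that every volume-regulated anion channel needs, was the least precisely measured member. It measured 16.39, 21.89, 18.79 and 15.44 CPM in DMSO and 17.75, 22.63, 18.88 and 18.2 CPM in Yoda1. Replicate 2 was the highest of each group and the groups overlapped throughout. The log2 fold change was 0.09 ± 0.10 (SE), with a 95% interval from -0.12 to 0.30 and an edgeR adjusted p = 0.642. Its exons overlap Gm28035 on the same strand, a symbol that was not among the genes counted. They also overlap 1700084E18Rik on the opposite strand, which had 0 to 8 counts, so the split of reads between that gene and Lrrc8a is uncertain.

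Lrrc8c and Lrrc8d, which join Lrrc8a in the channel and influence which solutes pass, both fell. Lrrc8c measured 94.33, 99.82, 101.1 and 105.4 CPM in DMSO and 90.68, 88.77, 85.2 and 89.65 CPM in Yoda1, a log2 fold change of -0.18 ± 0.04 (SE) with edgeR adjusted p = 0.00593. Lrrc8d measured 60.49, 66.11, 63.89 and 59.24 CPM in DMSO and 56.64, 55.91, 54.03 and 50.79 CPM in Yoda1, a log2 fold change of -0.21 ± 0.05 (SE) with edgeR adjusted p = 0.00602. For both genes every Yoda1 library was below every DMSO library, and groups did not overlap, in either direction, for 15.5% of all genes. Lrrc8b, at 15.3 ± 2.48 CPM in DMSO and 15.02 ± 1.65 CPM in Yoda1 (SD, n = 4 each), was not called (edgeR adjusted p = 0.949). The differences between the subunits' fold changes were not tested. The list for volume-regulated and calcium-activated anion channels also holds other chloride channel, cotransporter and kinase genes. Of its 22 tested genes, these 2 were the ones called (9.09%, beside 10.9% of all genes), and the median was -0.01. The most abundant gene of that list, Clic1, an intracellular chloride channel protein at 240 RPKM, had a log2 fold change of -0.02.

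Genes that act on the calcium and sodium that such channels let in were examined as well. Their lists were chosen with earlier results of these data known. Atp2b1, a calcium pump of the plasma membrane, rose from 257 ± 4.47 to 306 ± 7.90 CPM (SD, n = 4 each). The 4 Yoda1 libraries, from 297.7 to 315.3 CPM, lay well above the 4 DMSO libraries, from 251.3 to 261.3 CPM. Its log2 fold change was 0.25 ± 0.04 (SE) with edgeR adjusted p = 6.58e-06. Atp2b4, another such pump, was more abundant in DMSO, at 35.9 RPKM beside 16.9 RPKM for Atp2b1. Its log2 fold change was 0.05 ± 0.04 (SE), and it was not called (edgeR adjusted p = 0.497). Atp1b3, a subunit of the sodium-potassium pump, rose from 96.6 ± 2.05 CPM (SD, n = 4) to 108 ± 4.11 CPM, which is 0.16 in log2 units (edgeR adjusted p = 0.00956). Of 19 genes for calcium and sodium exit, 9 were tested, 2 called higher and 0 lower. The 2 are 22.2% of the 9, beside 10.9% of all genes. The median of this list was -0.21, opposite in sign to its calls.

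Among 12 genes named as partners or regulators of Piezo1, 8 were tested, and the median was 0.045. By edgeR 2 were called higher (25%, beside 10.9% of all genes called) and 0 lower. Atp2a2, the calcium pump of the endoplasmic reticulum, which also binds Piezo1, rose from 452 ± 10.8 CPM (SD, n = 4) to 506 ± 13.2 CPM, which is 0.16 in log2 units (edgeR adjusted p = 0.00195), and at 74.4 RPKM it was the most abundant of its list. Mdfic, which encodes an auxiliary subunit of Piezo channels, rose from 122 ± 3.36 CPM (SD, n = 4) to 135 ± 5.76 CPM, which is 0.15 in log2 units (edgeR adjusted p = 0.0143). Its groups met at 126.6 CPM, and its call was lost without DMSO replicate 3 (edgeR adjusted p = 0.051) or Yoda1 replicate 1 (0.0521). For store-operated calcium entry, 7 genes were tested, with a median of 0.015 for the list. Of these 1, the pore gene Orai1, was called higher (14.3%, beside 10.9% of all genes called). The other pore genes, Orai2 and Orai3, were not called (edgeR adjusted p = 0.869 and 0.654). In DMSO Orai2 was the more abundant, at 17.5 RPKM beside 13.1 RPKM for Orai1. Orai1 stood 0.20 higher in log2 units (edgeR adjusted p = 0.0362). That call was lost in 9 of 15 other settings: with DESeq2 (adjusted p = 0.0641), with library size alone (edgeR adjusted p = 0.0608), with upper-quartile factors (edgeR adjusted p = 0.0787), and when any of DMSO replicates 2 to 4 or Yoda1 replicates 1 to 3 was left out (edgeR adjusted p up to 0.133). Saraf, which shuts the store-operated channel down and was the most abundant of that list at 81.5 RPKM, was not called (edgeR adjusted p = 0.115).

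Over all lists, which include the 10 members, 99 of 199 genes in the files were tested, 9 were called higher and 5 lower. These 14 are 14.1% of the 99, beside 10.9% of all genes, and their median log2 fold change was -0.0044, beside -0.0053. The lists were thus near the level of all genes in both measures.

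**Figure D4:**
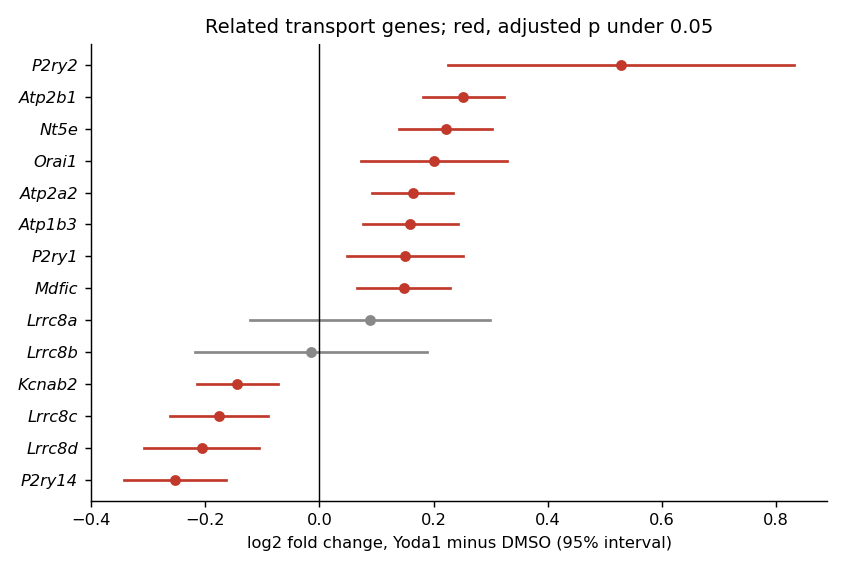
Log2 fold change of Yoda1 over DMSO by edgeR, with 95% intervals, for the genes of the channel and transporter lists, other than the members, that passed the adjusted test (red), with Lrrc8a and Lrrc8b added for comparison (grey). The values run from -0.25 for P2ry14 to 0.53 for P2ry2, whose interval is the widest.

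Piezo1 varied little between libraries, and 3 genes followed its variation most closely. Over the 8 libraries, in log2 CPM, the highest Pearson correlations with Piezo1 among 8805 genes were those of Prrc2a (r = 0.977), Bdp1 (r = 0.964) and Ikzf5 (r = 0.954). Among the members the values ran from -0.66 for Trpv2 and -0.52 for P2rx7 to 0.61 for Lrrc8a and 0.67 for Panx1. These points share library depth and treatment, and the highest of so many correlations over 8 points are high by selection.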

How the data were processed

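RNA of cultured lung ILC2s was sequenced in 8 libraries, 4 DMSO and 4 Yoda1, grouped by their labels. The authors deposited a table of whole-number counts per gene for each library, not normalized. The submitters' processing notes name TopHat and the mouse build mm10, and the study's methods list BB Map and FASTX Trimmer for read processing, FastQC for quality, and Cufflinks and Cuffdiff for expression. Which gene annotation was counted, and whether by strand, is not given in the sources used here. From the counts, 12239 of 23183 genes passed filterByExpr (minimum count 10, minimum total 15) and were tested with edgeR 4.0.16 in R 4.3.3. TMM scaling factors ran from 1.0031 to 1.0099 in DMSO and from 0.9879 to 0.9965 in Yoda1, so they did not overlap between groups. The test used a robust quasi-likelihood fit on treatment and Benjamini-Hochberg adjustment at 0.05. SEs and 95% intervals come from that fit. Exact two-sided permutation tests took all 70 assignments of the libraries. RPKM used the exons of GENCODE M21 (GRCm38), which named 22148 of the genes (95.5%). A count test was used in place of Cuffdiff, which needs reads. The edgeR fit was tested on simulated counts with planted changes larger than that of any member. Recovery of changes as small as those of the members was not tested. Counting error limits low genes, and 3 counts were taken as the floor. The 8 libraries differed from each other by more than counting error, and same-numbered libraries did not deviate together, so none were merged or paired.

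The members, the lists and the markers were chosen with earlier results of these data known. Genes named are the members, list genes with an adjusted p under 0.05, the most abundant gene per kilobase of each list, the closest relatives of the members, and the 3 genes most correlated with Piezo1 in log2 CPM (prior count 2) among tested genes with a mean of at least 10 CPM. Other genes named are markers, overlap a member, or are relatives of named genes (Atp2b4, Orai2, Orai3 and Kcna4) named after their values were seen. The most abundant gene of 1 list is not reported here. Alternatives were DESeq2 1.42.0, library size alone, upper-quartile factors, no filter, 10 counts in every library, limma-voom (limma 3.58.1), the replicate number as a block, and leaving out each library, plus other gene lengths for levels.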

Additional observations from a re-analysis of the deposited data

Results flagged for a closer look

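Of 20 sets of 4 libraries (10 channels in each group), 2 held a library far from the other 3, where chance alone gives about 1. For Kcna3, DMSO replicate 2 was low at 34.1 CPM, with the next library at 39.42 CPM, a gap of 0.909 of the range of the group. For Trpm4, DMSO replicate 3 was high at 18.2 CPM, with the next at 16.31 CPM, a gap of 0.843 of the range.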

How the results depend on the processing

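Trpm7 kept its call under all 15 alternatives (edgeR, DESeq2 or limma-voom adjusted p from 0.00166 to 0.0415). Kcna3 stayed higher in all 15 and lost its call in 9: its log2 fold change was 0.188 with DESeq2 (adjusted p = 0.0582), 0.164 with library size alone (edgeR adjusted p = 0.056), 0.155 with upper-quartile factors (edgeR adjusted p = 0.0696), 0.187 with the replicate block (edgeR adjusted p = 0.0615), and 0.130 to 0.206 over the fits that leave out 1 library. The count of members called was then 1 in each of those 4 settings and 1 to 2 over the left-out libraries (1 without DMSO replicate 2 or any 1 Yoda1 library). The other 8 members were not called under any alternative run. The sign changed on leaving out a library for Kcnn4 (-0.047 to 0.021), P2rx4 (-0.017 to 0.119) and Panx1 (-0.074 to 0.047), whose values lay near 0. Same-numbered libraries shared little deviation: they correlated at -0.0277 to 0.0711, and 3 of 8 correlated best with their own number. The labels do not say whether the cultures were paired, and these correlations cannot settle it. With the replicate block 966 genes were called in place of 1331. Of all genes, 739 were called higher and 592 lower, against 505 and 958 with upper-quartile factors and 553 and 809 with library size alone, so the larger direction depends on scaling. Genes called lower numbered 372 with DESeq2 and 367 to 677 over the left-out libraries, the lowest without DMSO replicate 2, then 374 without Yoda1 replicate 4. In the order of levels, 2 members kept their place with coding length (Piezo1 in place 3 rather than 2) and 6 with the longest transcript. With the longest transcript the ratios were 1.296 for Kcnn4 to Kcna3, 1.609 for P2rx4 to P2rx7 and 4.511 for Trpm7 to Trpm4. The causes of these shifts were not tested. Genes of the lists called numbered 10 to 15 over the alternatives. At 176 to 534 counts a library, Trpm4, Panx1, P2rx4, P2rx7 and Lrrc8a had SEs of 0.070 to 0.101 on the log2 scale, which hold both counting error and spread between libraries.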
